A study of Mus musculus with 6 samples.

Results

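Fibrosis-linked matrix glycoproteins are secreted proteins that fibroblasts lay down in healing and scarred tissue. A list of 10 of their genes (Fn1, Tnc, Postn, Sparc, Thbs1, Thbs2, Eln, Fbln1, Fbln2 and Fbn1) was followed on the arrays, and a gene was taken where a probe set is annotated with its symbol alone. This gave 1 probe set for each of 9 genes, of 19938 genes named on the array. Fbn1 was not analysed here. All 9 passed a filter on dim genes, and they were tested among the 14953 genes that passed it.

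The cells were fibro/adipogenic progenitors (FAPs), stromal cells that lie between muscle fibres, from wild-type male C57Bl/6 mice aged 8 to 12 weeks. Each tibialis anterior muscle had received 30 µL of 50% glycerol, which injures the muscle chemically. A vivo-morpholino (VMO), an antisense oligomer that enters cells in the animal and blocks a site on an RNA, was injected 3 days later, and the cells were isolated after another 2 days. The groups were 5'ss-VMO, which is directed at a 5' splice site, pA-VMO, oligomers against polyadenylation sites, and control VMO, with 2 arrays each. All 3 groups thus carried the injury and an oligomer, and no uninjured or uninjected muscle was compared. The series concerns a form of PDGFRα, the PDGF receptor of FAPs, that arises by polyadenylation inside an intron, and its title ties this to muscle fibrosis. Each array held RNA of cells pooled from 4 mice, so that differences between single mice cannot be seen.

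Matrix glycoproteins link collagen and elastin to each other and to cells. Fibronectin forms the early scaffold of a wound, and matricellular proteins such as tenascin-C, periostin, SPARC and the thrombospondins are made in quantity during repair and act on cell adhesion and growth factor activity more than as structural parts. Elastin, the fibulins and the fibrillins build elastic fibres. In injured muscle FAPs are a main source of such proteins, and their lasting deposition is a feature of fibrosis.

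The values are log2 levels after RMA, a procedure that makes the distributions of the arrays alike. They ran from 1.38 to 13.50 over all probe sets, with correlations of 0.99 between arrays. Levels of different genes are not set against each other, because probe sets differ in how brightly they bind. The FAP marker Pdgfra lay at 11.31 and 11.29 with 5'ss-VMO, at 11.29 and 11.32 with pA-VMO and at 11.37 and 11.24 with control VMO. Most other FAP markers lay below control with both reagents, as given further down. The Pdgfra probe set cannot separate the shortened from the full transcript and so gives no check of the treatment. Precision is limited by having 2 arrays per group. A difference between groups had a median standard error of 0.07 on the log2 scale, and an exact permutation test of 2 against 2 arrays cannot go below p = 0.333. In cell preparations of this kind fewer cells of a type and less RNA per cell cannot be told apart.

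Tnc was the matrix glycoprotein gene that differed with 5'ss-VMO. It encodes tenascin-C, a large adhesion-modulating glycoprotein that is scarce in resting adult tissue and made after injury. The log2 level of Tnc was 12.24 on both arrays with 5'ss-VMO, 12.05 and 12.09 with pA-VMO, and 11.86 and 11.87 with control VMO. The arrays of each group lay closer together than any pair of groups, and the 3 groups did not overlap. This order, with 5'ss-VMO above pA-VMO and pA-VMO above control, was found without overlap for 439 of 14953 genes (2.94%), and the opposite order for 1.66%.

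Against control VMO, Tnc rose by 0.38 ± 0.062 with 5'ss-VMO (log2, SE, n = 2 arrays per group), a 1.30-fold difference with a 95% interval of 1.18 to 1.43 (limma, adjusted p = 0.0386). With it 1 of 9 members passed the test, where 87 of all 14953 genes (0.582%) did, 0.502% higher and 0.0803% lower. The size of the Tnc difference stayed between 0.36 and 0.38 under the settings tried. Most of them could not change it, because only centring and leaving out an array of these groups alter the means compared. Its call lay close to the threshold. The limma adjusted p ran from 0.000307 to 0.115 over the settings that kept all 6 arrays or the 4 of this comparison. The limma adjusted p was 0.115 without a filter on dim genes, 0.0574 with the arrays centred on their medians and 0.0692 with the 4 arrays of this comparison alone. Leaving out any one of the 6 arrays ended the call. Without a control or a 5'ss-VMO array that group is left with 1 array, and the difference ran from 0.37 to 0.38. Without either pA-VMO array the test is the same as that with the 4 arrays alone.

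With pA-VMO, Tnc lay 0.21 ± 0.062 above control (log2, SE; 1.15-fold, 95% interval 1.05 to 1.27) and did not pass the test over all genes (limma adjusted p = 0.304, unadjusted p = 0.00865). Between the reagents, Tnc lay at -0.17 ± 0.062 (log2, SE) in pA-VMO cells relative to 5'ss-VMO cells (limma adjusted p = 0.237). Neither step of the order between neighbouring groups therefore passed, while the difference between its ends did. Both reagents are compared with the same control arrays. At an adjusted p of 0.05, limma called 0 of 9 members for pA-VMO against control, where 1 gene of 14953 (0.00669%) was called, and 0 of 9 for pA-VMO against 5'ss-VMO, where 9 genes (0.0602%; 0.0468% lower) were. At an unadjusted p under 0.05 the count was 1 of 9 members, namely Tnc, in each of the 3 comparisons. Of all genes, 13.9% reached it with 5'ss-VMO relative to control, 11.4% with pA-VMO relative to control and 15.9% between the reagents.

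**Figure D1:**
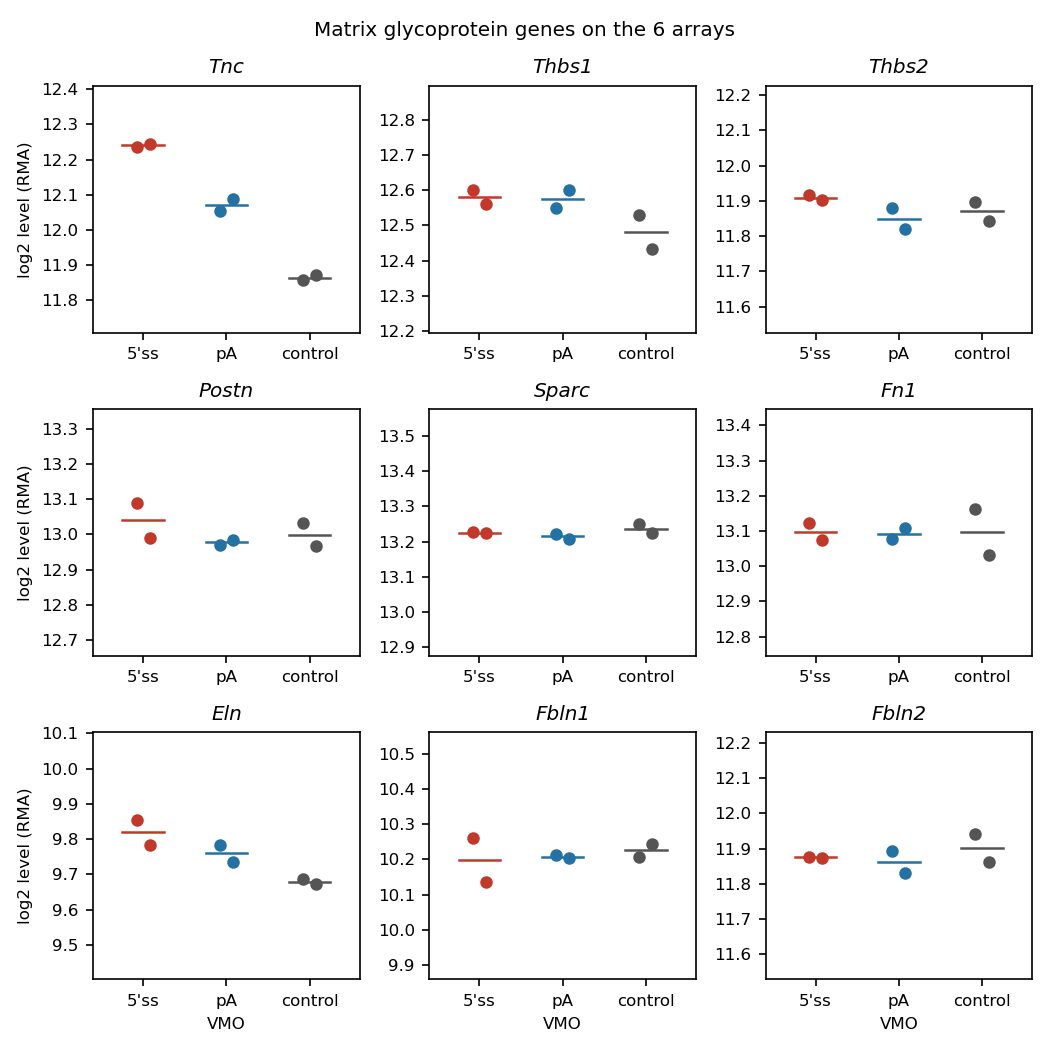
Log2 level (RMA) of the 9 measured genes on each of the 6 arrays. Points are arrays, lines are means of 2 arrays, and all panels span the same range of log2 values. Tnc lies at 12.24 with 5'ss-VMO, at 12.05 and 12.09 with pA-VMO and at 11.86 and 11.87 with control VMO. The groups of Fn1, Fbln1 and Fbln2 overlap in every comparison, and those of Thbs1, Thbs2, Eln, Postn and Sparc in some.

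Tnc lies on chromosome 4 of GRCm38.p6, from 63959785 to 64047015 on the minus strand. Of the other genes, Fn1 lies on chromosome 1, Thbs1 on 2, Postn on 3, Eln on 5, Fbln2 on 6, Sparc on 11, Fbln1 on 15 and Thbs2 on 17. RefSeq promoter windows matched 6 of the 9 measured genes (Tnc, Postn, Sparc, Thbs2, Fbln1 and Fbln2), with 9 windows in all, since Tnc, Postn and Fbln1 each have a pair of starts. The 250 bases before a start were searched on both strands for 4 motifs. The letters TATANA stand for a loose TATA box, GGGCGG for the GC box, TGANTCA for the AP-1 site and GGAATG for the TEAD site. The window before the downstream start of Tnc is shown because Tnc is the member that passed the test, and that of Postn because it also holds a TATANA match near its start while Postn did not pass. Both are written 5′ to 3′ on the strand of the gene, and capitals mark matches to any of the 4 motifs, of which TATANA and GGGCGG do not overlap each other here.
Tnc chr4:64046937-64047186, minus strand: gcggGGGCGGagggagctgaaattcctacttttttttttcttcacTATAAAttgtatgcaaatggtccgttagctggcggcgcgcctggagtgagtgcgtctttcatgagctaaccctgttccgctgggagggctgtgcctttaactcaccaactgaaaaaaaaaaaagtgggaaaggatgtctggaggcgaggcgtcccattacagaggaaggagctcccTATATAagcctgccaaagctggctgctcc
Postn chr3:54360857-54361106, plus strand: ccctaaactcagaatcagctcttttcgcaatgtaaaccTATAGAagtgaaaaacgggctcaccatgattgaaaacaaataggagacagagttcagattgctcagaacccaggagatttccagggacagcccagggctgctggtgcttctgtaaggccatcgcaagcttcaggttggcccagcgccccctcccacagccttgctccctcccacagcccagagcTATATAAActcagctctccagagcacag

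The Tnc window had a TATANA match that begins 29 bases before the start, another at 205 bases and a GGGCGG match at 246 bases. The Postn window had TATANA matches at 28 and 26 bases, which overlap each other, and at 212 bases. Thbs2 had 1 TATANA match, at 126 bases, and the windows of Sparc, Fbln1 and Fbln2 had 0. GGGCGG was also present at 16 bases in Fbln2 and at 11 bases before the downstream start of Fbln1. Of all 32851 windows of this length, 22.6% hold TATANA and 32.7% hold GGGCGG. The AP-1 letters TGANTCA are found in 6.75% of all windows and the TEAD letters GGAATG in 12.6%, and neither was in the 9 windows of the members. The core of the interferon response element was also searched, and is not capitalised above. A longer form of it, found in 2.98% of all windows, was in 0 of the 9. A shorter form, AANNGAAA, which was tried after the longer one had been seen to have no match, is found in 21.3% of all windows and was in both windows of Tnc, which overlap and hold the same match, and in the Postn window shown, where it overlaps a TATANA match.

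Summed markers of other cells moved with Tnc in 3 lists, and the part of those cells in its difference was not tested. Summed over the 9 macrophage markers tested of 10 listed, the linear signal was 1545 to 1552 with 5'ss-VMO, 1451 to 1481 with pA-VMO and 1103 to 1368 with control VMO, and the scavenger receptor Cd163 was below the filter floor. All 9 lay above control with 5'ss-VMO, and C1qc and C1qa passed the test, at 0.50 and 0.39 (log2; limma adjusted p = 0.0249 and 0.0472). The 6 endothelial markers summed to 516 to 535, 489 to 492 and 446 to 472 in the same order of groups, with Emcn below the floor. With 5'ss-VMO 4 of the 6 lay above control and 2, Tek and Vwf, lay below it. Cdh5 was the 1 that passed the test (log2 0.70), and most of the rise of the sum with 5'ss-VMO came from it. The 8 pericyte and smooth muscle markers summed to 1176 to 1178 with 5'ss-VMO, 1097 to 1132 with pA-VMO and 992 to 1018 with control VMO. With 5'ss-VMO 7 of the 8 lay above control, and Mcam passed the test. In these 3 lists the sums of the groups did not overlap and stood in the order that Tnc showed. Bright probe sets weigh most in such sums, and not every marker followed the order. In pA-VMO relative to 5'ss-VMO, 4 of 9 macrophage, 2 of 6 endothelial and 5 of 8 pericyte and smooth muscle markers lay higher.

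The 7 satellite cell and myoblast markers summed to 713 to 769 with 5'ss-VMO, 587 to 594 with pA-VMO and 560 to 629 with control VMO. All 7 lay above control with 5'ss-VMO, and Chrna1 passed the test. Of 10 FAP markers listed 9 were tested, because Ly6a had no probe set annotated with its symbol alone. The 9 tested summed to 18751 to 19099, 19061 to 19518 and 20460 to 21026 in the same order of groups, below control with both reagents. Of these 9, 8 lay below control with 5'ss-VMO and 7 with pA-VMO, with medians of -0.16 and -0.17 (log2). Dpp4 passed the test with 5'ss-VMO (log2 -0.52; limma adjusted p = 0.0318). The 6 tenocyte markers were of interest because tendon fibroblasts can make tenascin-C. They summed to 2044 to 2414 with 5'ss-VMO, 1960 to 2047 with pA-VMO and 2046 to 2271 with control VMO. Of the 6, 4 lay above control with 5'ss-VMO and 3 with pA-VMO. Kera lay below control with both reagents, at -0.69 and -1.32 (log2), and passed both tests (limma adjusted p = 0.0474 and 0.0232). The 3 Schwann cell markers tested of 6 summed to 238 to 246, 253 to 258 and 254 to 262, with 0 that passed by limma and 2 at an unadjusted p under 0.05. Their Cdh19 was below the floor.

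The other matricellular genes showed small differences that did not pass the test. Thbs1 encodes thrombospondin-1, which can activate latent TGF-beta and signals through CD47. Its log2 level was 12.60 and 12.56 with 5'ss-VMO, 12.55 and 12.60 with pA-VMO and 12.53 and 12.43 with control VMO. Both reagents lay above both control arrays, by 0.10 ± 0.067 with 5'ss-VMO (log2, SE; limma adjusted p = 0.546) and by 0.09 ± 0.067 with pA-VMO (limma adjusted p = 0.640).

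Thbs2, the related thrombospondin-2 that restrains vessel growth, was at 11.92 and 11.90 with 5'ss-VMO, 11.88 and 11.82 with pA-VMO and 11.90 and 11.84 with control VMO. The control arrays lay just below the 5'ss-VMO arrays and overlapped the pA-VMO arrays, and the difference with 5'ss-VMO was 0.04 ± 0.064 (log2, SE; limma adjusted p = 0.825).

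Postn encodes periostin, a collagen-binding protein of fibroblasts that responds to TGF-beta. It was at 13.09 and 12.99 with 5'ss-VMO, 12.97 and 12.98 with pA-VMO and 13.03 and 12.97 with control VMO. The groups overlapped in both comparisons with control, where Postn differed by 0.04 ± 0.067 with 5'ss-VMO and by -0.02 ± 0.067 with pA-VMO (log2, SE; limma adjusted p = 0.825 and 0.937).

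Sparc, a collagen chaperone and counter-adhesive protein, varied least, over a range of 0.04 on the log2 scale. It was at 13.23 and 13.22 with 5'ss-VMO, 13.22 and 13.21 with pA-VMO and 13.25 and 13.22 with control VMO. Sparc lay at -0.01 ± 0.062 with 5'ss-VMO and at -0.02 ± 0.062 with pA-VMO (log2, SE; limma adjusted p = 0.957 and 0.927). The levels of Sparc, Fn1 and Postn were all close to the highest value in the table, 13.50, and whether their probes were near saturation was not tested.

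Fn1 encodes fibronectin, the glycoprotein on which cells and collagen assemble in a fresh wound. It was at 13.12 and 13.07 with 5'ss-VMO, 13.08 and 13.11 with pA-VMO and 13.16 and 13.03 with control VMO. The control arrays enclosed those of both reagents. Fn1 differed from control by 0.001 ± 0.070 with 5'ss-VMO, with a 95% interval of 0.897- to 1.12-fold, and by -0.004 ± 0.070 with pA-VMO (log2, SE; limma adjusted p = 0.997 and 0.990). The probe set does not separate the splice forms of Fn1, and the same holds for those of Tnc.

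Among the 3 measured members that belong to elastic fibres, Eln had the largest difference from control. It encodes tropoelastin, the monomer of elastin. Eln was at 9.86 and 9.78 with 5'ss-VMO, 9.78 and 9.74 with pA-VMO and 9.69 and 9.67 with control VMO. All arrays of the reagents lay above both control arrays, while the reagents overlapped each other. The difference with 5'ss-VMO was 0.14 ± 0.065 (log2, SE; 1.10-fold, 95% interval 0.996 to 1.22) and did not pass (limma adjusted p = 0.374). With pA-VMO it was 0.08 ± 0.065 (limma adjusted p = 0.678).

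Fbln1 and Fbln2 encode fibulins, which bind fibronectin and tropoelastin. Fbln1 was at 10.26 and 10.14 with 5'ss-VMO, 10.21 and 10.20 with pA-VMO and 10.21 and 10.24 with control VMO. Fbln2 was at 11.88 and 11.87 with 5'ss-VMO, 11.89 and 11.83 with pA-VMO and 11.94 and 11.86 with control VMO. For both genes the groups overlapped in all 3 comparisons. With 5'ss-VMO both lay at -0.03 relative to control (log2; limma adjusted p = 0.891 and 0.890).

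**Figure D2:**
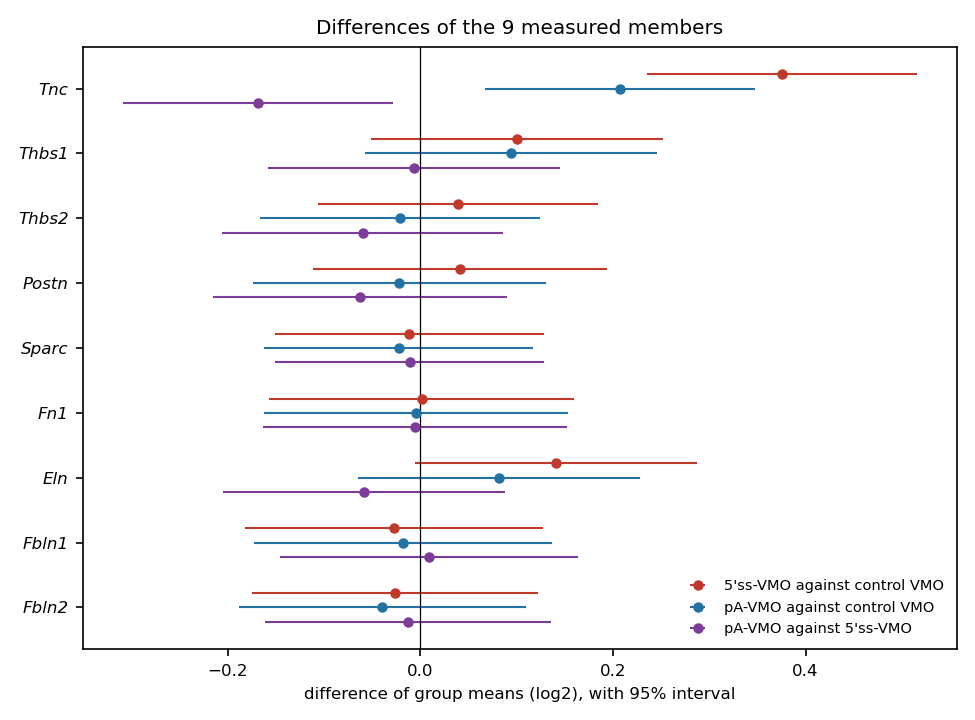
Difference of group means (log2) for the 9 measured genes in the 3 comparisons, where points are differences, the first-named group minus the second, and bars are 95% intervals from limma. The intervals of Tnc leave out 0 in each comparison, with 0.38 for 5'ss-VMO against control VMO and 0.21 for pA-VMO against control VMO, and those of the other 8 genes include 0.

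Among the 8 genes other than Tnc, differences from control ran from -0.03 to 0.14 with 5'ss-VMO and from -0.04 to 0.09 with pA-VMO (log2). The 95% intervals of these 8 genes together spanned 0.881- to 1.22-fold with 5'ss-VMO and 0.878- to 1.19-fold with pA-VMO. Changes beyond those bounds lay outside every interval. The bounds are the outermost ends over the 8 genes, and the interval of a single gene can be narrower. Each interval included 0, so that none of these differences could be told from no change with 2 arrays per group. For pA-VMO against 5'ss-VMO the 8 differences ran from -0.06 to 0.01, with intervals from 0.861- to 1.12-fold.

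Members whose arrays did not overlap were counted by direction beside all genes. With 5'ss-VMO, 4 of 9 members lay above control without overlap (Tnc, Thbs1, Thbs2 and Eln) and 0 below, where 23.2% of all genes lay above and 21.5% below (44.8% in all). With pA-VMO, 3 members lay above control (Tnc, Thbs1 and Eln) and 1 below (Sparc), where 24.1% of all genes lay above and 18.8% below (42.9% in all). For pA-VMO against 5'ss-VMO, 4 members lay below (Tnc, Thbs2, Postn and Sparc), and 0 above, where 23.7% of all genes lay below and 25.5% above (49.1% in all). The median difference of the 9 members was 0.04 with 5'ss-VMO and -0.02 with pA-VMO, and that of all genes tested was 0.00097 and 0.01 (log2).

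**Figure D3:**
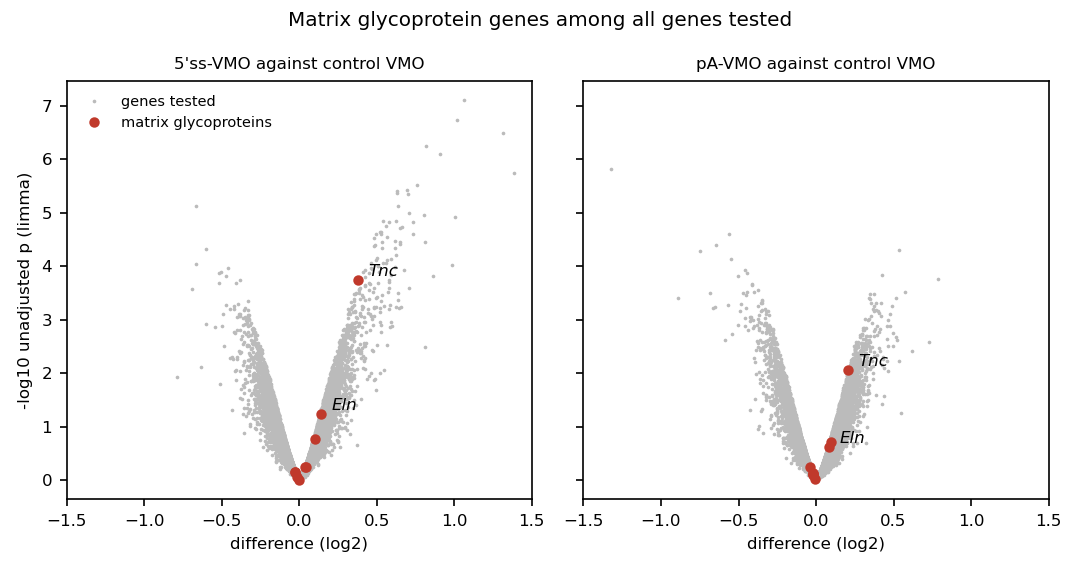
Difference from control VMO (log2) against -log10 of the unadjusted limma p for 14953 genes (grey), with the 9 matrix glycoprotein genes in red, for 5'ss-VMO (left) and pA-VMO (right). Tnc stands at 0.38 with 5'ss-VMO and at 0.21 with pA-VMO, Eln at 0.14 and 0.08, Thbs1 at 0.10 and 0.09, and the other 6 lie between -0.04 and 0.04.

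Genes that work beside these glycoproteins were read from 3 lists. Of 15 elastic fibre and microfibril partners 14 were tested, and 0 passed by limma in any comparison. With 5'ss-VMO, 2 were higher and 3 lower at an unadjusted p under 0.05, and the median difference was -0.03 (log2). The values of smallest p were those of Efemp1, a fibulin-family protein, at -0.29 ± 0.066 (SE; adjusted p = 0.113), Ltbp2, a microfibril-binding protein, at 0.29 ± 0.073 (adjusted p = 0.145) and Ltbp1, which tethers latent TGF-beta, at -0.21 ± 0.075 (adjusted p = 0.267). With pA-VMO the same genes lay at -0.14, 0.22 and -0.23, with 1 higher and 1 lower at an unadjusted p under 0.05 and adjusted p values of 0.334 and above in the list. Between the reagents the smallest p values were those of Efemp1 at 0.15, Ltbp4 at 0.16 and Emilin1 at -0.09 (pA-VMO minus 5'ss-VMO, log2), with 1 gene at an unadjusted p under 0.05.

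Of 21 other matricellular and adhesive glycoproteins 20 were tested, and 0 passed by limma in any comparison. Most had values below control: 18 of 20 with 5'ss-VMO, with a median of -0.13, and 16 of 20 with pA-VMO, with a median of -0.12 (log2). At an unadjusted p under 0.05, 8 were lower and 2 higher with 5'ss-VMO, and 8 were lower and 0 higher with pA-VMO, where such a p was reached by 13.9% and 11.4% of all genes in either direction. Vtn, the adhesive protein vitronectin, was at 9.38 and 8.98 with 5'ss-VMO and at 9.65 and 9.79 with control VMO, a difference of -0.54 ± 0.119 (log2, SE; adjusted p = 0.101). Tgfbi, a TGF-beta-induced adhesion protein, lay at -0.29 with 5'ss-VMO and at -0.33 with pA-VMO (adjusted p = 0.105 and 0.204). Comp, a thrombospondin-family protein of cartilage and tendon, lay at -0.27 and -0.38 (adjusted p = 0.139 and 0.204). Fbln7 lay at -0.40 in both comparisons (adjusted p = 0.173 and 0.269). Its arrays were at 9.25 and 8.87 with 5'ss-VMO, 9.05 and 9.08 with pA-VMO and 9.43 and 9.49 with control VMO. The second 5'ss-VMO array was the lower one for Fbln7 as for Vtn.

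Ccn2, the connective tissue growth factor, had the smallest p of this list between the reagents. It was at 9.78 and 9.84 with pA-VMO and at 10.11 and 10.15 with 5'ss-VMO, with control VMO between them at 9.94 and 9.93. The difference of pA-VMO from 5'ss-VMO was -0.32 ± 0.064 (log2, SE; limma adjusted p = 0.0802). Ccn4, of the same family, lay at -0.16 and Vtn at 0.25 in this comparison (adjusted p = 0.309 and 0.337), and 2 of 20 genes had an unadjusted p under 0.05, both lower.

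Of 15 cell-surface receptors of matrix glycoproteins 14 were tested, and Itgb6 was below the filter floor. By limma 0 passed in any comparison. At an unadjusted p under 0.05 there was 1 higher with 5'ss-VMO, 2 higher and 1 lower with pA-VMO, and 1 lower in pA-VMO relative to 5'ss-VMO. Cd36, a thrombospondin receptor, lay at 0.34 with 5'ss-VMO and at 0.46 with pA-VMO (log2; adjusted p = 0.237 and 0.251). Its control arrays were at 5.05 and 5.26, on either side of the filter floor of 5.21. The integrin subunit genes Itgb8 and Itgb5 lay at 0.13 and -0.09 with 5'ss-VMO, Itgav and Itga4 at 0.18 and -0.17 with pA-VMO, and Itga4, Itga8 and the syndecan Sdc1 at -0.23, -0.19 and 0.16 in pA-VMO relative to 5'ss-VMO (adjusted p = 0.144 and above).

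**Figure D4:**
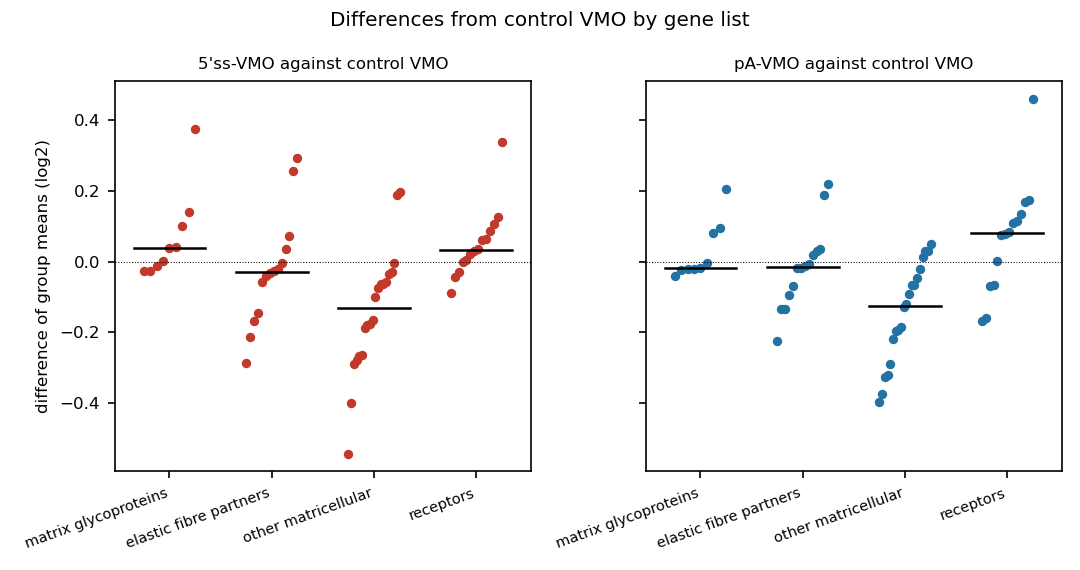
Difference from control VMO (log2) of each tested gene of the 9 matrix glycoproteins and the 3 neighbouring lists, for 5'ss-VMO (left) and pA-VMO (right). Points are genes, ordered by value within a list, and black lines are medians, which lie at -0.13 and -0.12 for the other matricellular genes.

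The genes nearest in pattern were sought for the 3 members whose group means spanned the widest range, which were Tnc (0.38), Eln (0.14) and Thbs1 (0.10). Nearness was the root mean square difference over the 6 arrays between log2 values centred on each gene's own mean. A gene picked in this way has group differences close to the member's own, so its test result adds no separate support. For Tnc the nearest were Parp10, a mono-ADP-ribosyltransferase, Mlkl, the effector of necroptosis, and Oasl2, an oligoadenylate synthetase-like protein, at 0.027, 0.027 and 0.029. Their differences between 5'ss-VMO and control were 0.33, 0.38 and 0.31, of which that of Mlkl passed the test (limma adjusted p = 0.0480) and those of Parp10 and Oasl2 did not (0.0636 and 0.0793). For Eln the nearest were Nav1, Ceacam1 and Chek2, at 0.018 each, and for Thbs1 they were Hhipl1, S1pr5 and Igsf3, at 0.010, 0.013 and 0.014. The differences of these 6 genes from control ran up to 0.18 with 5'ss-VMO, and their limma adjusted p values were 0.269 and above.

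**Figure D5:**
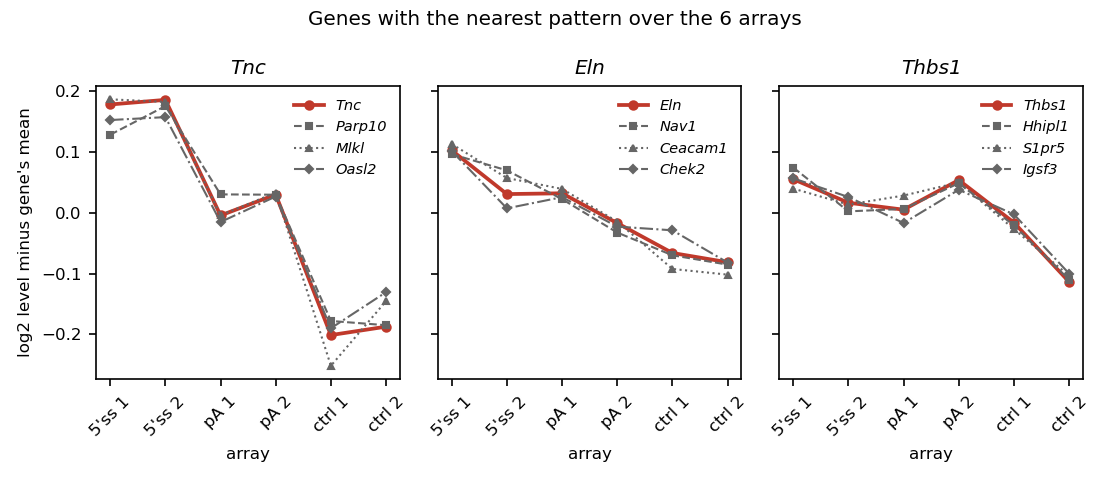
Log2 level minus each gene's own mean on the 6 arrays for Tnc, Eln and Thbs1 (red) and the 3 genes nearest to each (grey). Arrays run from 5'ss-VMO through pA-VMO to control VMO (ctrl), and the Tnc panel shows a step of 0.38 between its ends, which Parp10, Mlkl and Oasl2 follow with root mean square differences of up to 0.029.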

How the data were processed

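Gene expression was measured on Affymetrix Mouse 1.0 ST arrays, 1 per pool, from 100 ng of total RNA per the labels' protocols. The deposited values are log2 levels per probe set, made by the authors with RMA in Affymetrix Expression Console per the submitters' processing notes; its version and settings are not stated. RMA hides changes in total RNA per cell and compresses changes of dim probe sets.

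Of 35556 probe sets, 21789 have 1 gene symbol in the platform annotation, 1621 several and 12146 none. The probe set of highest mean stood for a gene. Genes dimmer on average than the 25th percentile (log2 5.21) were dropped. The test was limma 3.58.1 (R 4.3.3) with 1 mean per group, all 6 arrays and no block (eBayes, 3 residual and 6.06 prior degrees of freedom), two-sided, with Benjamini-Hochberg adjustment over 14953 genes in each of 3 comparisons. A gene passed at an adjusted p under 0.05. Nothing in the labels names separate cultures beyond the pools. The fit was tested on simulated data with changes larger than that of Tnc, which does not show how it does with one of that size.

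The members and lists were chosen with earlier results of these data known. All members were named, with the 3 genes of smallest p per comparison from each neighbouring list and any that passed. Alternatives changed the filter, the variance model, the scaling, the probe set, the block and the arrays used. Promoter sequences are RefSeq's (GRCm38.p6).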

Additional observations from a re-analysis of the deposited data

How the results depend on the processing

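The difference of Tnc between 5'ss-VMO and control kept its direction in all 13 alternatives, from 0.36 to 0.38 (log2). Most of them could not change it, because only centring and leaving out an array of these groups alter the means compared. It passed the test in 3: the filter at the 50th percentile, the variance model with trend and robust estimation, and the mean of a gene's probe sets (limma adjusted p as low as 0.000307). Tnc has 1 probe set, so the last of these left its own values unchanged. The number of members that passed, 1 in this comparison, was 0 without a filter, with median-centred arrays and with only the 2 groups compared, and 0 whichever array was left out. The cause was not tested, except that without a filter more genes are tested and that without an array fewer samples are. In the other comparisons it was 0 under every setting. The other 8 members did not pass in any of the 320 values of a member under another setting, and 23 of their differences changed sign near 0. Some of these values repeat each other. Leaving out an array of the third group gives the same test as using only the 2 groups compared. The median difference of the members ran from -0.00835 to 0.0671 over the fits that left out 1 array for 5'ss-VMO against control, from -0.04 to 0.01 for pA-VMO against control and from -0.0526 to -0.0113 for pA-VMO against 5'ss-VMO.

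Over all genes, the count that passed with 5'ss-VMO (87) was 24 without a filter, 181 with the 50th percentile, 265 with trend and robust estimation and 8 (without control replicate 1) to 76 with 1 array left out. With pA-VMO (1) it was 0, 1, 49 and 0 to 2. For pA-VMO against 5'ss-VMO (9) it was 3, 102, 186 and 1 to 18, and 15 with the mean of probe sets.

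The replicate number was also fitted as a replicate block. Deviations of same-numbered arrays correlated at 0.02, -0.10 and -0.03 over genes in the 3 comparisons, so that the arrays share only a number. With the replicate block 0 members passed for 5'ss-VMO (Tnc adjusted p = 0.0572), and over all genes 90, 1 and 23 passed. With the numbers crossed, chosen after seeing the data, 1 gene and 0 members passed for pA-VMO against control.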
